A study of Homo sapiens with 6 samples.

Results

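The Fanconi anemia genes examined here were FANCA, FANCB, FANCC, FANCD2, FANCE, FANCF, FANCG, FANCI, FANCL and FANCM, and the members of the set were the R-loop peaks that overlapped the annotated record of 1 of these 10 genes or the 2 kb on either side of it. An R-loop is a three-stranded structure in which RNA pairs with the template strand and leaves the other DNA strand single. Peaks were matched by gene name to GENCODE release 44 mapped to GRCh37 (hg19), the build of the deposited lists. The untreated list held 12 such peaks among 10231, at 7 of the 10 genes, and the treated list held 12 among 11085, at 8 of them.

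The peaks came from spKAS-seq, in which N3-kethoxal tags guanines in single-stranded DNA and the tagged strands are sequenced with their strand kept. HEK293T cells, a human embryonic kidney line, were left untreated or given 10 μM N2-heptynyl-dG for 3 h. This is a deoxyguanosine with an alkyl group on the minor-groove nitrogen that cells place into their DNA. The cells were then exposed to 5 mM N3-kethoxal for 10 min. They were the parental line, wild type only in the sense that no gene was knocked out for the study. The series holds 2 untreated samples, 2 treated samples and 2 inputs, all from this 1 cell line, and the files analysed here are 1 peak list for each condition. Each line of a list is a chromosome, a start, an end and a strand, with no height, so a peak was either listed or not, its depth is unknown, and no difference between the lists could be tested or set against a spread between replicates.

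The Fanconi anemia pathway repairs DNA crosslinks that block replication and is also known for protecting cells from collisions between replication forks and R-loops. FANCA, FANCB, FANCC, FANCE, FANCF, FANCG and FANCL form the core complex, which FANCM, a DNA translocase, helps to bring to DNA. FANCL is the ubiquitin ligase of the complex, and its substrates FANCD2 and FANCI form a clamp that closes on DNA once ubiquitin is attached.

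The sequences below are stretches of the peaks on which the comparison of the lists turns, read from GRCh37 on the strand of the peak. Each is written from 5′ to 3′ with runs of 3 or more G in capitals, since N3-kethoxal reacts with guanine. The first set is sequence that a peak covered in 1 list and left uncovered in the other, at starts that both lists marked, with the FANCB stretch shortened to leave out most untranslated sequence.
FANCC, upstream, treated list only, chr9:98080027-98080276, plus strand: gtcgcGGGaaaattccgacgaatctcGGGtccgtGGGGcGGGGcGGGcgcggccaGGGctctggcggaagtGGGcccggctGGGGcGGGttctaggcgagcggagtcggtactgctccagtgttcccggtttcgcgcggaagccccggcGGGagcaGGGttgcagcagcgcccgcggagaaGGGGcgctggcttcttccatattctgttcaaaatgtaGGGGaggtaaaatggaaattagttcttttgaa
FANCG, upstream, treated list only, chr9:35080000-35080249, minus strand: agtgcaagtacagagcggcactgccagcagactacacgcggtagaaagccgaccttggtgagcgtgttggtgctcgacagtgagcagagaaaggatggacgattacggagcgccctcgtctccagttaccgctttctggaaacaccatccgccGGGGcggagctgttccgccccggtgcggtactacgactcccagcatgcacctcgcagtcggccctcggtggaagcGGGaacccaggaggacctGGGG
FANCB and MOSPD2, between the starts, untreated list only for this strand, chrX:14891348-14891500, plus strand: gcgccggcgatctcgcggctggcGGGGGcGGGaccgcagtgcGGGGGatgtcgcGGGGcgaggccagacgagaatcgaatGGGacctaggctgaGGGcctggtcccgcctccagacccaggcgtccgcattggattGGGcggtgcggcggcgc
The second set comes from peaks that had the same borders in both lists, each shown by the 150 bases with the most G in such runs and at most 30 bases of untranslated region.
FANCB, intron 1, chrX:14890951-14891100, minus strand: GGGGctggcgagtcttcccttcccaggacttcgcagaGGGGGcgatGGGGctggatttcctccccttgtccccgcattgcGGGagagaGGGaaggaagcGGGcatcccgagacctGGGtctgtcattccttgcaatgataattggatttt
FANCM, exon 1, chr14:45605432-45605581, plus strand: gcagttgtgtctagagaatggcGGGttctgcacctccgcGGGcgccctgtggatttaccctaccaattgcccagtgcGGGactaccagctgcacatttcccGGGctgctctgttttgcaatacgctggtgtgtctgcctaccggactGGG
The third set comes from the start peaks listed in the untreated condition alone, shown in the same way.
FANCE, exon 1, chr6:35420339-35420488, plus strand: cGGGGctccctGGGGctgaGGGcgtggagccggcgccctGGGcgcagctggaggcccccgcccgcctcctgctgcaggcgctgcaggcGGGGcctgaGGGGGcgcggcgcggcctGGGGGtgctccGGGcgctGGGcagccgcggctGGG
FANCI, intron 1, chr15:89787482-89787631, plus strand: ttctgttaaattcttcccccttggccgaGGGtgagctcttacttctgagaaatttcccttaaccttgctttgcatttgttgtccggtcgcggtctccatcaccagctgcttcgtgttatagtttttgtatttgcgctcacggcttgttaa
The stretches differ in length, so their numbers of runs do not rank them. The FANCC stretch held 13 runs in 250 bases, and its 100 G against 59 C gave a GC skew, (G - C)/(G + C), of 0.258. The FANCG stretch of the same length held 3 runs, with 83 G and 74 C. The 150 bases of FANCE held 10 runs at a GC content of 84%. Those of FANCI intron 1 held 1 run at 46%, but the limit on untranslated sequence kept the window out of the G-rich part of that peak, which as a whole had a GC content of 59.6% and a skew of 0.134. The stretches of 150 bases were picked for their runs within that limit. Those of FANCC and FANCG are the whole 250 bp that the treated list alone covered. No stretch stands for a whole peak.

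Over the whole genes, FANCB, FANCC, FANCE, FANCG, FANCI, FANCL and FANCM had a peak in both lists, FANCD2 had one in the treated list, and FANCA and FANCF had none. The untreated count was 7 of 10, where 41.8% of 20098 protein-coding genes on chromosomes 1 to 22 and X had a peak by the same rule. In the treated list the count was 8 of 10 and the share of all coding genes was 43.9%. Both lists held a peak at 7 of 10, beside 36.4%, and neither list did at 2 of 10, beside 50.6%. Long genes offer more room for a peak: the median length was 74440 bp for the 10 genes and 27256 bp for all coding genes. The start of a gene gives every gene a window of the same size, so the next counts use 1 kb on either side of the start of the canonical transcript.

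At the start, 7 of the 10 genes were marked in the untreated list (FANCB, FANCC, FANCE, FANCG, FANCI, FANCL and FANCM), where 26.4% of all coding genes were. The treated list marked 5 of 10 (FANCB, FANCC, FANCG, FANCL and FANCM) beside 28.8%, and these 5 were marked in both lists, beside 22%. FANCE and FANCI had a start peak in the untreated list only, 2 of 10 beside 4.4%. None of the 10 had a start peak in the treated list only, where 6.84% of all coding genes did. The set thus had 2 fewer marked starts in the treated list while the coding genes as a whole had more, 5798 against 5308. With 10 genes and 1 list a condition, this difference rests on FANCE and FANCI. The shares of all coding genes were not matched for base composition or for expression, and the lists give no expression. CpG content at the start, observed over expected, was 0.728 to 0.997 in the 10 genes, with a median of 0.838. The median was 0.724 for all coding genes, 0.789 for those with a start peak and 0.644 for those without. Within the set it was 0.795 with a start peak and 0.87 without. The part of CpG content in the start counts was not tested.

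**Figure D1:**
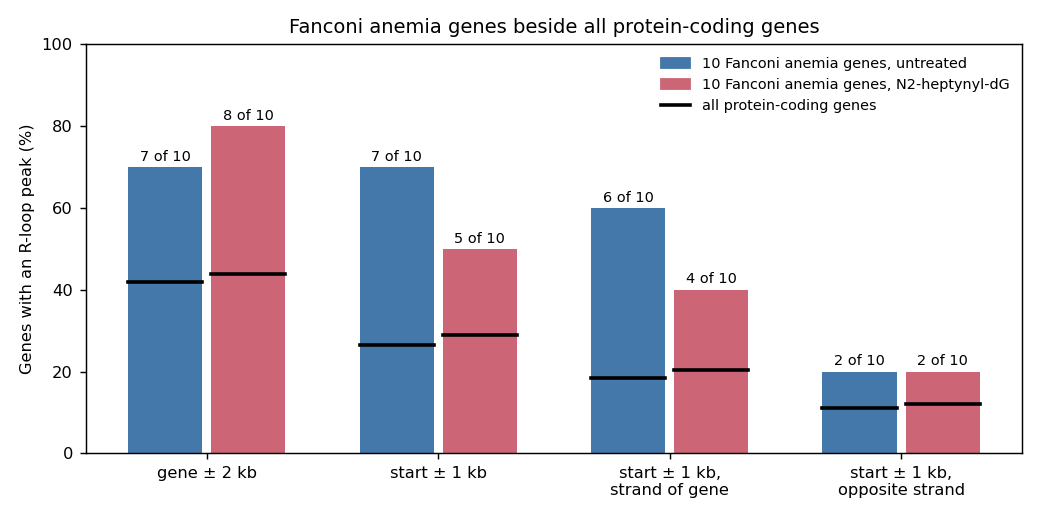
Percentage of genes with an R-loop peak (vertical axis, 0 to 100%) in the gene or within 2 kb, within 1 kb of the canonical start, and at the start on the strand of the gene or the opposite strand, for the 10 Fanconi anemia genes in the untreated (blue) and N2-heptynyl-dG (red) lists. Black lines give the share of 20098 protein-coding genes; the bars stand above them in all 4 pairs, and at the start the untreated bar is 7 of 10 and the treated bar 5 of 10.

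Strand was read against the gene: a sense peak carries the strand of the gene and an antisense peak the other, as the lists give it, and the lists do not state which strand of the R-loop the column names. Sense peaks at the start were listed for FANCB, FANCE, FANCG, FANCI, FANCL and FANCM in untreated cells, 6 of 10 beside 18.4% of all coding genes. In treated cells they were listed for FANCB, FANCG, FANCL and FANCM, 4 of 10 beside 20.4%. Antisense start peaks were at FANCB and FANCC in both lists, 2 of 10, beside 11.1% of all coding genes without treatment and 12% with it. Among all coding genes with an untreated start peak, 58.1% had it on the sense strand alone, 30.3% on the antisense strand alone and 11.6% on both. FANCC belonged to the antisense group and FANCB to those with both. The antisense FANCB peak covers the start of the neighbour MOSPD2 and is sense to that gene. In the treated list it lies 124 bp outside the FANCB record. Over all peaks of the set, 9 of 12 were sense in each list, and no share over all peaks was counted beside this. The 9 include peaks at the starts of the neighbours VCP and RPL10A, outside the records of FANCG and FANCE.

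**Figure D2:**
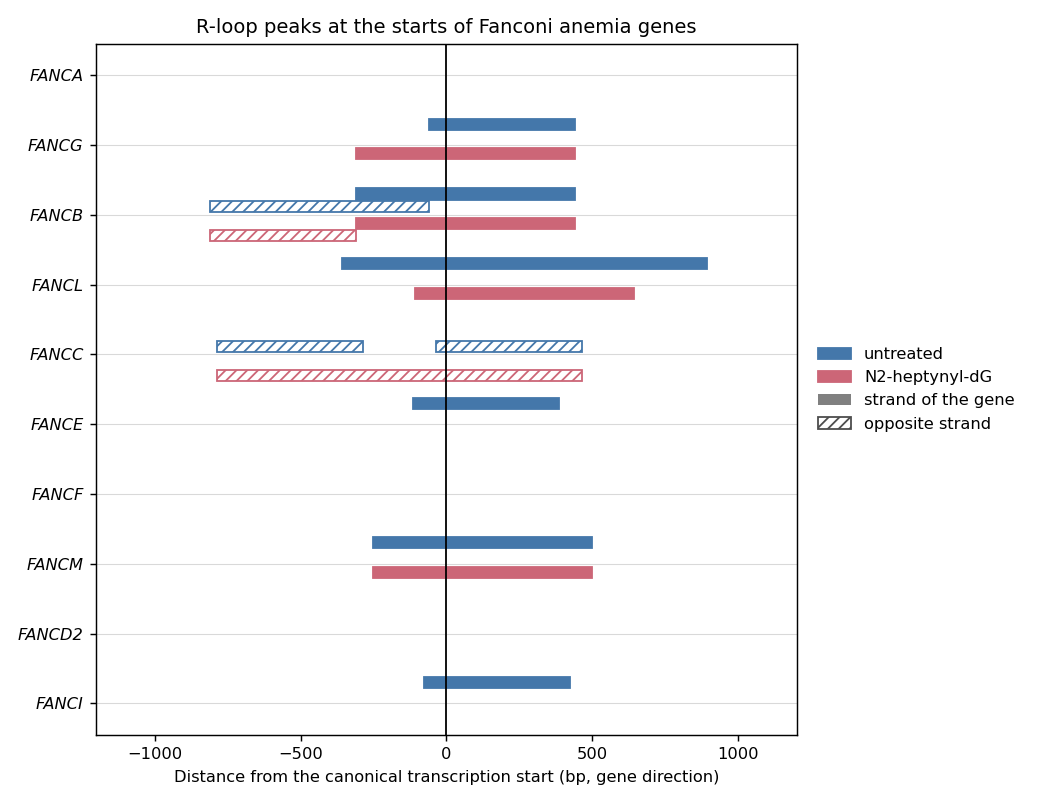
R-loop peaks around the canonical transcription start of each of the 10 genes, with distance in bp along the gene on the horizontal axis, untreated peaks in blue and N2-heptynyl-dG peaks in red. Filled bars are on the strand of the gene and hatched bars on the opposite strand; FANCB and FANCM keep a bar with the same ends in both lists, the FANCC bars meet in the treated list, and FANCE and FANCI have an untreated bar alone.

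FANCA and FANCG are partners in 1 arm of the core complex. FANCG (chr9:35073832-35080001, minus strand) had a sense peak over its start in both lists. In untreated cells it was 500 bp wide, chr9:35079500-35079999, from 60 bp upstream to 439 bp downstream of the start, and covered 418 bp of 5′ untranslated region and 22 bp of coding sequence. In treated cells the downstream border was the same and the upstream border lay 250 bp further out, giving 750 bp, chr9:35079500-35080249. The widths of all peaks of the set are multiples of 250 bp, so this is 1 step of that grid. Both windows also held a peak past the end of the gene, 1083 bp from its record without treatment and 833 bp with it. That peak covers the start of VCP, the segregase that extracts ubiquitylated proteins, also lies inside the protein-coding record ENSG00000288699 on the same strand, and was 500 bp and then 750 bp wide.

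FANCA (chr16:89793091-89883385, minus strand) had no peak in either list. The nearest peak lay 5294 bp outside its record without treatment and 5044 bp with it, at the far end of the gene, 95258 bp and 95008 bp from the start. FANCA had the highest GC content at the start of the 10 genes, 76.2% over the start and 500 bp on either side.

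FANCB and FANCL form the catalytic arm of the core complex with the ubiquitin ligase activity. FANCB (chrX:14708510-14891377, minus strand) lies head to head with MOSPD2, a membrane contact protein gene on the plus strand that starts 352 bp upstream of FANCB. Its sense peak, chrX:14890751-14891500, was listed with the same borders in both conditions, 750 bp with 309 bp upstream of the start and 357 bp in intron 1. On the plus strand a second peak covered the start of MOSPD2. It spanned chrX:14891251-14892000, 750 bp, in untreated cells and chrX:14891501-14892000, 500 bp, in treated cells. The untreated pair overlapped between the FANCB and MOSPD2 starts, and the treated pair abutted at 14891500 with no base in common. FANCB therefore kept 1 peak and lost 1 grid step of the other between the lists.

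FANCL (chr2:58386378-58468545, minus strand) had the widest start peak of the set in untreated cells, 1250 bp at chr2:58467568-58468817, from 357 bp upstream to 892 bp downstream. The treated peak, chr2:58467818-58468567, was 750 bp and lay inside it, with both borders 250 bp further in. Both also overlap the start, at 58468484, of ENSG00000273063, a long noncoding RNA gene on the plus strand. Each list also had 1 sense peak of 500 bp inside an intron that the other lacked. The untreated one was in intron 5, chr2:58438068-58438567, and the treated one in intron 3, chr2:58454318-58454817. FANCL is thus the gene with both a shared start peak and an intronic peak particular to each list.

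FANCC, FANCE and FANCF form the arm of the core complex that receives FANCD2 and FANCI. FANCC (chr9:97861336-98189078, minus strand) was the gene whose peaks were all antisense. Its record begins 109087 bp upstream of the canonical start, at 98079991, and the peaks lay at the canonical start. Untreated cells had a pair of 500-bp peaks, chr9:98079527-98080026 over the start and chr9:98080277-98080776 upstream. Treated cells had 1 peak of 1250 bp, chr9:98079527-98080776, with the same outer borders. The outer limits thus did not move, and the 250 bp printed above, which separated the untreated peaks, were covered in the treated list. The FANCC peak over the start had a GC content of 71.6% and a skew of -0.19, and the upstream one 41.8% and -0.0622.

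FANCE (chr6:35420115-35434881, plus strand) had a sense start peak in the untreated list alone, chr6:35420001-35420500. Of its 500 bp, 114 bp were upstream, 208 bp in the 5′ untranslated region and 178 bp in coding sequence, and its GC content of 76.8% was the highest among the peaks of the set. The nearest treated peak was 15251 bp away. That peak and its untreated counterpart lie past the end of FANCE at the start of RPL10A, a large ribosomal subunit protein gene, at 870 bp from the FANCE record in treated and 1120 bp in untreated cells. RPL10A had 750 bp covered in untreated cells, chr6:35436001-35436750, and 1250 bp in treated cells, chr6:35435751-35437000. FANCE counted as marked in the treated list only through this neighbour.

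FANCF (chr11:22644079-22647369, minus strand), a gene of 1 exon, had no peak in either list. The nearest lay 336610 bp away in both lists.

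FANCM (chr14:45605133-45670093, plus strand) had a sense peak of 750 bp with the same borders in both lists, chr14:45604882-45605631. It held 251 bp upstream, 102 bp of 5′ untranslated region and 397 bp of coding sequence. The treated list added a 500-bp antisense peak upstream, chr14:45603132-45603631. This peak lies inside FKBP3, a prolyl isomerase gene on the minus strand that starts at 45603684, so it is sense to FKBP3. FANCM and FANCB were the genes of the set with a peak of identical borders in both lists. How common identical borders are over all peaks was not counted.

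FANCD2 and FANCI, the clamp, both had an intronic peak in the treated list. FANCI (chr15:89787176-89860492, plus strand) had an untreated start peak of 500 bp, chr15:89787133-89787632, with 55 bp of 5′ untranslated region and 368 bp of intron 1. In the treated list the start was unmarked, and a 750-bp peak lay in intron 2, chr15:89795133-89795882. These FANCI peaks were 7501 bp apart, so FANCI counts as marked in both lists with no base in common.

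FANCD2 (chr3:10068054-10143616, plus strand, 44 exons) had no start peak in either list. Its peak was a treated 500-bp sense peak in intron 26, chr3:10111251-10111750, 43130 bp downstream of the start. The nearest untreated peak was 44751 bp away. The 8 of 10 count in treated cells includes FANCD2 through this peak alone.

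**Figure D3:**
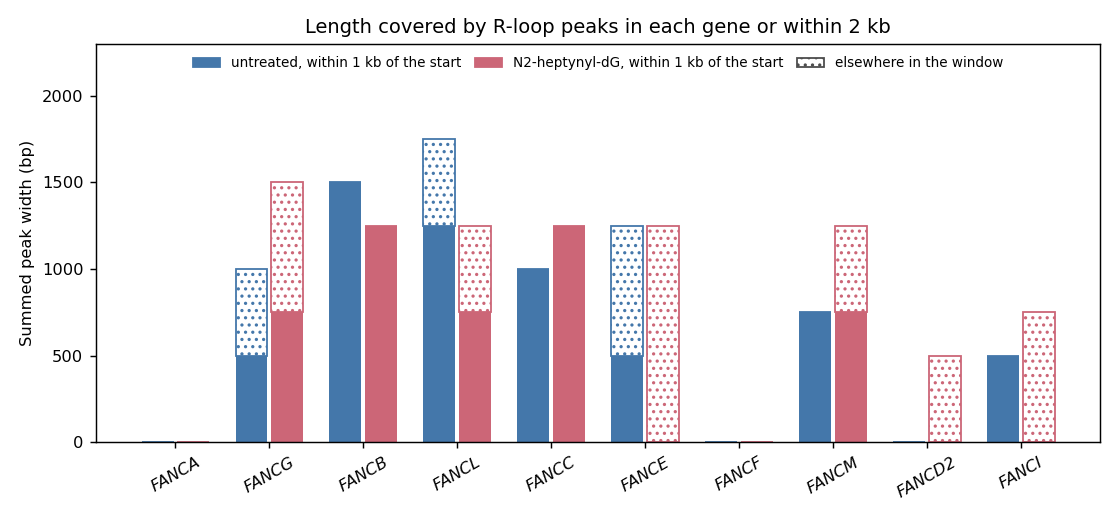
Summed width of R-loop peaks in bp (vertical axis) in each of the 10 genes or within 2 kb, untreated in blue and N2-heptynyl-dG in red, with filled parts for peaks within 1 kb of the canonical start and dotted parts for peaks elsewhere; peaks on opposite strands are added, so overlapping bases count for each. FANCB and FANCL have more in the untreated list, FANCC, FANCG, FANCM, FANCD2 and FANCI in the treated list, FANCE has 1250 bp in both, and FANCA and FANCF have none. Peaks outside the gene records are included.

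In sum the untreated peaks covered 7750 bp and the treated peaks 9000 bp. These sums include peaks outside the gene records, 2 of 12 untreated and 4 of 12 treated. The untreated ones were 750 bp at RPL10A and 500 bp at VCP. The treated ones were 1250 bp at RPL10A, 750 bp at VCP, and 500 bp each at MOSPD2 and FKBP3. The larger treated sum is thus not a gain inside the records, and no like sum over all peaks was set beside it. The median widths of the peaks of the set were 500 bp untreated and 750 bp treated, beside 750 bp for all peaks of either list. A partner in the other list, meaning an overlap of 1 bp or more, was found for 9 of 12 untreated peaks of the set, beside 74.8% of all untreated peaks. It was found for 8 of 12 treated peaks, beside 69.5%. These shares are near those of the lists as a whole. By width, at 500 bp 64.4% of 4207 untreated and 55% of 4710 treated peaks had a partner, and at 1250 bp 86.4% and 88.4%. In the set, 4 of 7 untreated and 1 of 4 treated peaks of 500 bp had one, and all 3 peaks of 1250 bp did. The untreated peaks with no partner were the start peaks of FANCE and FANCI and the FANCL intron 5 peak, each 500 bp wide. Those of the treated list were at FANCD2, FANCI intron 2, FANCL intron 3 and upstream of FANCM.

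The 4 peaks inside introns and outside the window of the canonical start (FANCD2 intron 26, FANCI intron 2 and both FANCL introns) were all in 1 list only. More of the sequence was repeated in the FANCD2, FANCI and FANCL intron 5 peaks than in any start peak, but not in the FANCL intron 3 peak. For each peak the words of 31 bases were counted that occur again elsewhere in the genome on either strand. Of the FANCD2 peak 91.3% of words were repeated, and 1 word of it occurs 1197 times. The FANCI intron 2 peak had 43.8%, with a word that occurs 90017 times. In FANCL the shares were 39.1% for intron 5, whose peak lies within 1 kb of another annotated transcript start of the gene, and 17.4% for intron 3. Of the 15 peaks within 1 kb of a start of the set, 13 had no repeated word. The other two were the untreated upstream FANCC peak, at 17.7%, and the treated FANCC peak that contains the same bases, at 6.8%. The FANCE and FANCI start peaks and the treated peak upstream of FANCM, also in 1 list only, had none.

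In the lists as a whole, at least 10% of words were repeated in 52.5% of 4941 untreated and 50.9% of 5220 treated peaks away from coding starts. Near coding starts the shares were 13.4% and 12.5%. Among treated peaks away from starts it was 51.8% for those that overlapped an untreated peak and 49% for those that did not. Short reads from repeated words can be placed at more than 1 position, and the part of this in the intronic peaks was not tested.

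**Figure D4:**
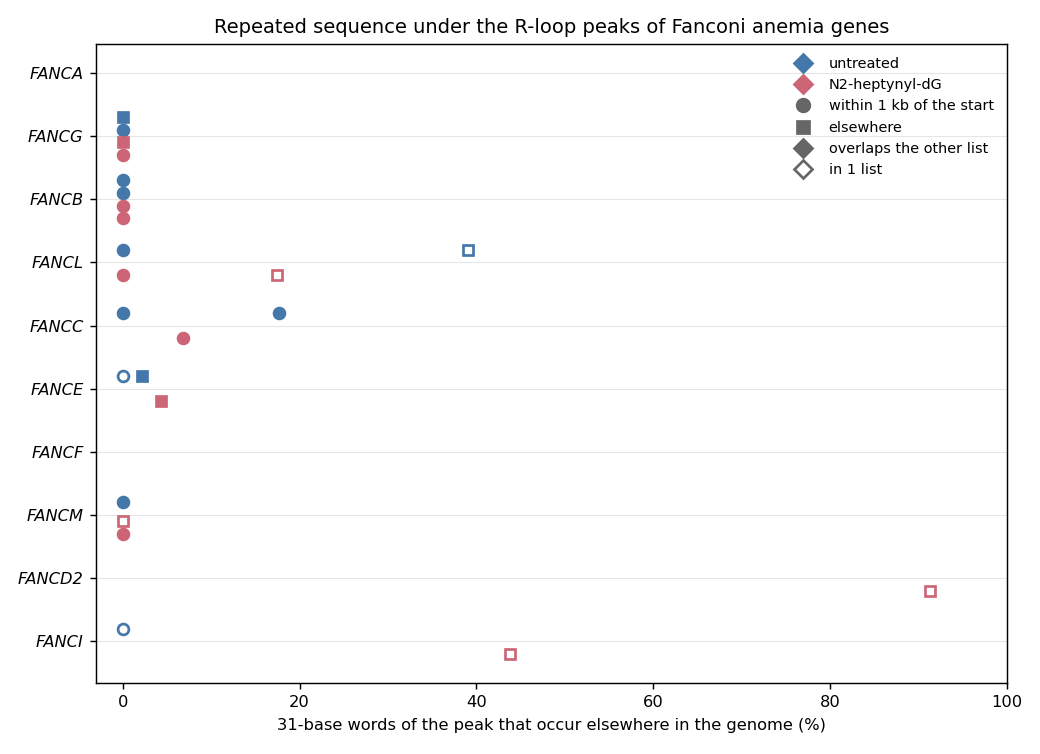
Percentage of 31-base words of each R-loop peak that occur elsewhere in GRCh37 (horizontal axis) for the peaks of the 10 genes, untreated in blue and N2-heptynyl-dG in red; circles are peaks within 1 kb of the canonical start, squares are peaks elsewhere, filled symbols overlap a peak of the other list and open symbols do not, and symbols at like values are set apart vertically. Start peaks sit at 0 except at FANCC, the open squares of FANCD2, FANCI and FANCL lie between 17.4% and 91.3%, and the open square of FANCM lies at 0.

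Base composition at the start was read on the strand of the gene. R-loops are known to be stable where the RNA is rich in G, which shows as a positive GC skew downstream of the start. Over the 500 bp downstream, FANCB had a skew of 0.218, FANCC 0.211 and FANCI 0.122. FANCE had 0.0794, FANCM 0.0753 and FANCL 0.0712, while FANCG was the marked gene below 0, at -0.0208. The 7 genes with a start peak had a median of 0.0794, and the 3 without one lay below 0, FANCD2 at -0.0114, FANCA at -0.0296 and FANCF at -0.0585. FANCG overlaps these 3. FANCC is placed here by the strand of the gene, but its peaks were all antisense. The untreated FANCC peak over the start had a skew of -0.19 on the strand of the peak. Across all coding genes no such gap was seen: the median was 0.0535 for the 6681 with a start peak and 0.0518 for the 13413 without. GC content did not order the genes the same way, with a median of 59.9% among those with a start peak and 56.9% among those without, beside 61.2% for all coding genes. FANCM, marked in both lists, had the lowest GC content, 49.5%.

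**Figure D5:**
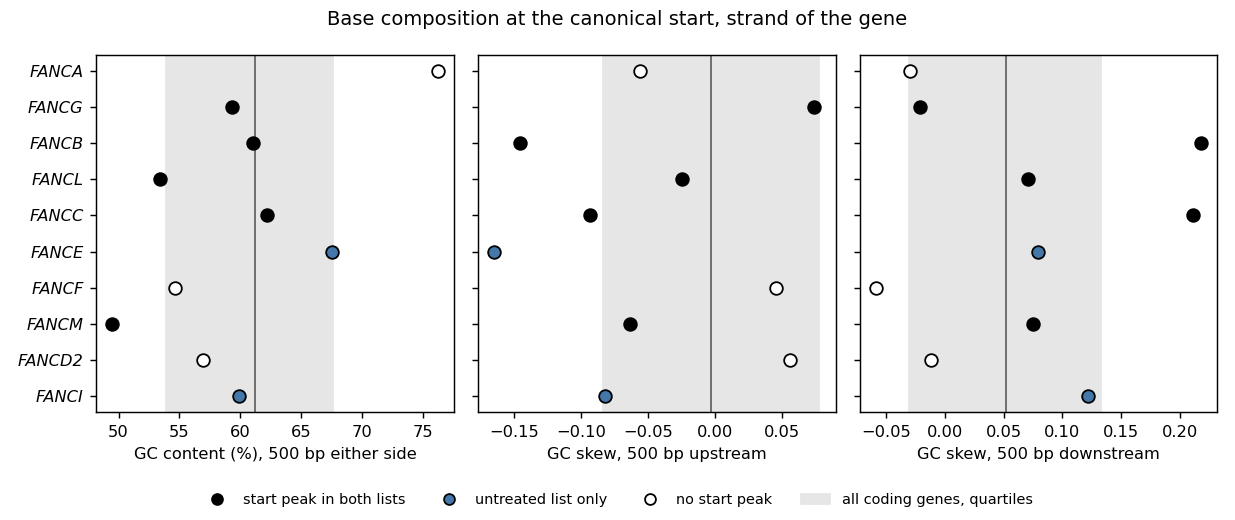
GC content (%) over the start and 500 bp on either side, and GC skew over 500 bp upstream and downstream of the canonical start of each of the 10 genes, with black points for a start peak in both lists, blue for the untreated list only and white for none. Grey bands are the quartiles and grey lines the medians of all coding genes; downstream, FANCB and FANCC lie above the band at 0.218 and 0.211, and the white points and FANCG lie below 0.

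A G-quadruplex motif, read as 4 runs of GGG or longer separated by 1 to 7 bases, was present on the gene strand within 500 bp of the start at FANCB, FANCC and FANCI. That is 3 of 10, where 43.7% of all coding genes had it. On the opposite strand 1 of 10 did, beside 36.9%. Under the peaks, on the strand of the peak, 3 of 12 untreated peaks held the motif beside 18.2% of all untreated peaks, and 4 of 12 treated peaks beside 19.3%. The 4 treated peaks include those at the starts of MOSPD2 and RPL10A, outside the records of FANCB and FANCE. On the strand opposite to the peak the motif was in 1 of 12 untreated peaks beside 23.6%, and in 2 of 12 treated peaks beside 26.6%. The RPL10A peak is 1 of these 2. Of the 7 genes with a start peak, FANCE, FANCG, FANCL and FANCM had no such motif on the gene strand within the window.

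A list of 20 further genes of the pathway held downstream repair factors, ligase partners, deubiquitinase subunits and core accessory proteins. In the gene or within 2 kb, 10 of 20 had an untreated peak, beside 41.8% of all coding genes, and 10 of 20 a treated one, beside 43.9%, and 8 did in both lists, beside 36.4%. At the start 5 of 20 had an untreated peak (BRCA2, ERCC4, PALB2, RFWD3 and USP1), beside 26.4%. A treated start peak was found at 7 of 20 (BRCA1, BRCA2, ERCC4, PALB2, RAD51C, UBE2T and USP1), beside 28.8%. PALB2 counted in both lists only through an antisense peak outside its record, which overlaps the neighbouring gene DCTN5 on the plus strand. UBE2T and FAAP100 also counted in both lists only through peaks outside their records. So did SLX4 in the untreated list and RFWD3 in the treated list. Of the peaks of these 20 genes, 7 of 14 untreated and 6 of 13 treated lay outside the records. ERCC4, a nuclease subunit of crosslink repair, had a sense peak over its start with the same 500 bp in both lists, chr16:14013751-14014250. BRCA2, a mediator of homologous recombination, had one at chr13:32890001-32890500, from 356 to 855 bp downstream of its start, again the same in both lists. BRCA1 and RAD51C, of the same repair route, had a sense peak of 500 bp over the start in the treated list only, at chr17:41277123-41277622 and chr17:56769753-56770252. UBE2T, the conjugating enzyme that works with FANCL, had an antisense peak upstream of its start in the treated list only. RFWD3, another ubiquitin ligase, had a start peak in the untreated list only. USP1, which removes ubiquitin from FANCD2 and FANCI, had a 750-bp sense peak over its start in the untreated list only, while an antisense peak upstream was in both. In these 20 genes 1 start was marked in the untreated list alone, beside 4.4% of all coding genes, and 3 in the treated list alone, beside 6.84%. In the 10 Fanconi anemia genes the counts were 2 and 0. The difference between these sets was not tested.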

How the data were processed

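Before deposit, the authors' reads were trimmed (Trim Galore), mapped to hg19 (Bowtie2) and freed of duplicates (Picard), and R-loops were called by an earlier procedure. The deposited lists hold 4 columns, and the positions, their only measurement, are in the unit other (base pairs). The single list of a condition is attached to its replicate 1 and was read as standing for the condition; the methods say that R-loops were identified from both replicates. Inputs, signal and reads were not analysed here, so depth is unknown and the cell type could not be checked by its markers.

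Positions were made 1-based. All 10 named genes, all genes under their peaks, head-to-head neighbours and a fixed list of 20 further pathway genes were reported. The members and lists were chosen with earlier results of these data known. Genes were those of GENCODE release 44 mapped to GRCh37, on chromosomes 1 to 22 and X. Overlap meant at least 1 bp on either strand. Words of 31 bases under peaks on these chromosomes were counted over the GRCh37 primary assembly. Sequences were read from GRCh37 with pysam 0.24.0 after indexing with samtools 1.23.1. Counts used Python 3.11.15, numpy 2.4.6 and pandas 2.3.3, and overlaps were checked with bedtools 2.31.1. Sequences of some peaks are not reported here. The overlap code was tested on simulated data. Figures used matplotlib 3.10.9. With 1 list per condition no test was run. Other flanks, strands, widths, start windows and overlaps were tried as alternatives.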

Additional observations from a re-analysis of the deposited data

How the results depend on the processing

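Of 24 alternative settings over 8 counts and shares, 19 left the value close to the one reported and 5 moved it. The untreated count of 7 genes with a peak became 2 when peaks on the strand opposite to the gene were required. With peaks of at least 750 bp it became 4, and the treated count of 8 became 3 on the opposite strand. The share of all coding genes was not recounted under these rules, so these 3 counts have no share beside them. With all annotated genes as background, the untreated share with a peak was 19.2% in place of 41.8% and the treated share 20.3% in place of 43.9%. The start counts of 7 and 5 were the same within 500 bp, within 2 kb and over any annotated start. Shared peaks numbered 7 and 7 at a 50% reciprocal overlap, in place of 9 and 8. Shares over all coding genes or all peaks were not recounted for these start windows and overlaps either. No paired analysis was possible because the lists, 1 per condition, give no value per sample, and for the same reason no replicate could be left out.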
